A study of Mus musculus with 48 samples.

Results

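The genes described here encode proteins of the vascular basement membrane and the surrounding extracellular matrix. They were taken by name from the deposited expression table, and all 33 of the named genes were found among its 24973 genes. They comprise 6 chains of type IV collagen, 10 laminin chains, 4 nidogens and heparan sulfate proteoglycans (*Nid1*, *Nid2*, *Hspg2* and *Agrn*), the multiplexins *Col18a1* and *Col15a1*, the glycoproteins *Fn1*, *Tnc* and *Sparc*, and 8 interstitial collagens. Their RNA was measured in 48 bulk libraries of cells sorted from the brains of male wild-type C57BL/6 mice aged 12 to 15 weeks, after transient middle cerebral artery occlusion (tMCAO), a stroke model in which the artery was closed for 1 h and reopened for 23 h. Each library came from the pooled hemispheres of 3 to 4 mice, and there were 6 ipsilateral (ischemic) and 6 contralateral libraries of each of 4 cell types. Endothelial cells were sorted as CD45-negative, ACSA2-negative, VE-cadherin-positive cells without NG2 and PDGFRβ. Pericytes carried NG2 and PDGFRβ, astrocytes were ACSA2-high, and microglia were CD45-low and CD11b-positive. The control was the other hemisphere of the same mice, and no library of a sham-operated or uninjured mouse was analysed here.

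The basement membrane is a thin sheet of protein on which endothelial cells sit, in which pericytes are embedded and which the end-feet of astrocytes contact. Its frame is built from laminin trimers, each of an α, a β and a γ chain, and from a network of type IV collagen, whose chains also assemble as trimers. Nidogens link both networks, and the heparan sulfate proteoglycans perlecan (*Hspg2*) and agrin (*Agrn*) bind to them. Fibronectin and tenascin C are glycoproteins known to be deposited in injured tissue, and the interstitial collagens form the fibres of connective tissue outside the basement membrane.

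The labels of 12 of the 48 libraries were at odds. For the ipsilateral pericytes and microglia, the sample titles name the opposite cell type to the sample descriptions and table columns, which were used here. With these, the summed normalized counts of 4 pericyte markers (*Pdgfrb*, *Des*, *Cd248* and *Cspg4*) were 34058 to 90625 in the ipsilateral pericytes and 102 to 1865 in the ipsilateral microglia. Those of 4 microglial markers (*Aif1*, *Tmem119*, *Cd68* and *Csf1r*) were 267 to 28388 and 91419 to 163197. Had the titles been used, 21 of the matrix genes would have been called changed in pericytes and 24 in microglia. Such a fit sets libraries with pericyte columns against libraries with microglial columns. The share of all genes called in it was not counted, so these counts are not shown to be particular to the matrix genes. Microglial markers also varied within the other cell types. In ipsilateral pericytes they summed to 6025 to 28388 in replicates 1 to 4 and to 267 and 277 in replicates 5 and 6, and in ipsilateral endothelial cells to 2863 to 21121 and to 276 and 316. Pericyte libraries held smooth muscle markers (*Acta2*, *Myh11*, *Tagln* and *Cnn1*) at 305671 to 472420 contralaterally and 140102 to 323604 ipsilaterally, while endothelial libraries held 205 to 6161. Fibroblast markers (8 genes, among them *Dcn*, *Lum* and *Pdgfra*) summed to 249 to 3680 and 1161 to 4081 in pericytes. The sorted pericytes are therefore described as labelled, with RNA of vascular smooth muscle markers and, at a lower level, of fibroblast markers in them. In bulk RNA, fewer cells of a type and less RNA per cell cannot be told apart.

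Normalized counts summed to 10549900 to 16942165 per library, and the spacing of low values put 1 read at 0.67 to 2.36 normalized counts. The floor was set at 3 reads, which came to at most 7.08 normalized counts in any library and covers counting error only. *Lamb3*, which encodes a laminin β chain best known from skin, was near this floor, with medians of at most 11 in all 8 groups.

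The basal level of each gene was read from the contralateral libraries. Of 32 matrix genes tested, 11 were higher in pericytes than in each of the other 3 cell types, against 6.28% of all genes (limma over 48 libraries, adjusted p of at most 0.05 and a difference of at least 1.5-fold in all 3 contrasts). In endothelial cells 1 gene was highest (5.50% of all genes), in astrocytes 1 (14.4%) and in microglia 1 (9.68%), and 18 genes were highest in none of the 4 by this test. The 11 pericyte genes were *Col4a5*, *Col4a6*, *Lama5*, *Lamb2*, *Lamc1*, *Nid1*, *Col1a1*, *Col1a2*, *Col3a1*, *Col6a1* and *Col6a2*. Of the 14 genes called, 4 lost the call when 1 replicate was left out. *Lamb2* and *Col1a1* lost it without replicate 1, 3, 4, 5 or 6 (largest adjusted p = 0.0518 to 0.101 and 0.0546 to 0.131), *Nid1* without replicate 1, 2, 4 or 6 (0.0685 to 0.101), and *Tnc* in astrocytes without replicate 1 (0.0554). The high smooth muscle markers and the fibroblast markers stand beside all 11 pericyte genes, and the part of either in these levels was not tested.

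**Figure D1:**
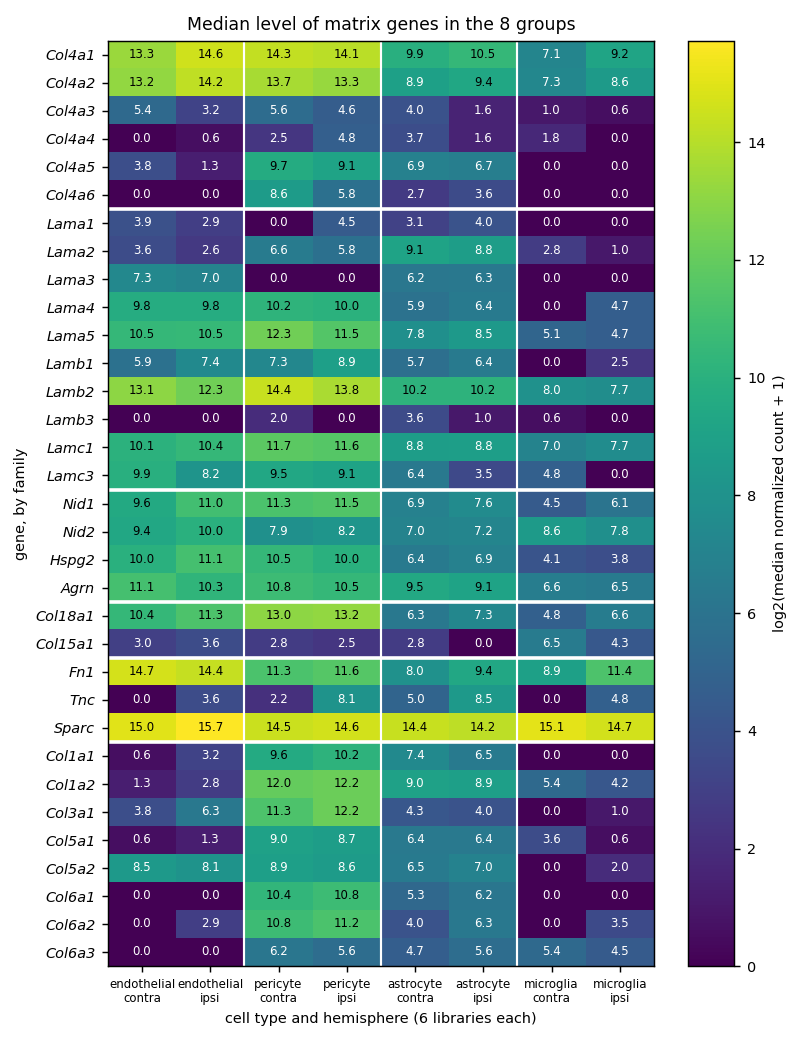
Median normalized count of each matrix gene in each of the 8 groups of 6 libraries, as log2(median + 1), with genes in rows by family and cell types and hemispheres in columns. *Sparc* is high in every column, most collagens and laminins are highest in the pericyte columns, and *Fn1* is highest in the endothelial columns.

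The main type IV collagen network of vessels is made of the chains encoded by *Col4a1* and *Col4a2*. In contralateral pericytes *Col4a1* ranged from 6070 to 24851 normalized counts (median 19810.5) and *Col4a2* from 4303 to 14199 (median 13060). In contralateral endothelial cells they ranged from 5100 to 16208 (median 10403) and from 5717 to 11181 (median 9181.5). The ranges of both cell types overlapped, and no cell type was called highest for either gene (largest adjusted p = 0.424 and 0.685). Astrocyte medians were 966.5 and 486.5, and microglial medians 139 and 157. Within a library the ratio of *Col4a1* to *Col4a2* was 0.799 to 1.47 in contralateral endothelial cells (median 1.19) and 1.35 to 1.81 in contralateral pericytes (median 1.47).

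*Col4a1* and *Col4a2* lie head to head on chromosome 8, with gene bodies that overlap by 22 bases, so that their promoters share sequence. These promoters are shown because both genes are read from 1 stretch of DNA. The windows below run from 250 bases before to 50 bases after each gene's start, 5′ to 3′ on the gene's own strand (RefSeq, GRCm38.p6). They overlap by 78 bases. Capitals mark the GC box, searched as GGGCGG, on either strand. They also mark the CCAAT box, searched on either strand by its own letters. The *Col4a1* window is chr8:11312777-11313076 on the minus strand and that of *Col4a2* chr8:11312555-11312854 on the plus strand.
Col4a1: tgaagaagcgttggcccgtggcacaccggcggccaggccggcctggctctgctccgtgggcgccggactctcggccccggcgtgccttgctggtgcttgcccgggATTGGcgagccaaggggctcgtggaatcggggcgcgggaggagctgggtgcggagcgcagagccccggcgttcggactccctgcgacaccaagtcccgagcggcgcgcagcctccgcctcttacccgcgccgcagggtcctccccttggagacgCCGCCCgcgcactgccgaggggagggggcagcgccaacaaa
Col4a2: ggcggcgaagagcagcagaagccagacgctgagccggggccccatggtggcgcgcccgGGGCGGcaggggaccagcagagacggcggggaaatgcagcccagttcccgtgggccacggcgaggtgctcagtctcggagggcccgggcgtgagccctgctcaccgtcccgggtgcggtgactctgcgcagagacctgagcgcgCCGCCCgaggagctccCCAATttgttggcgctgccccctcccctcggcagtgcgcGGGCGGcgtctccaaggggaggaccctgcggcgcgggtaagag
Both windows hold a GC box and a CCAAT box. The GC box of the *Col4a1* window lies in the shared bases, so the same site is also marked in the *Col4a2* window. The GC box occurred in 35.7% of the 32851 promoter windows of this length and the CCAAT box in 37.4%, and they occurred in 15 and 7 of the 23 matrix genes that had a window. These are matches of letters only.

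The other type IV chains form minor networks, known from kidney and smooth muscle. *Col4a5* had a contralateral median of 832 in pericytes, 117 in astrocytes, 13 in endothelial cells and 0 in microglia. *Col4a6* had a median of 396.5 in pericytes and of at most 5.5 elsewhere, a difference of at least 5.98 on the log2 scale from each other cell type (largest adjusted p = 1.8e-06). *Col4a3* and *Col4a4* were low, with group medians of at most 46 and 26. Per kilobase of exon, *Col4a1* and *Col4a2* made up 49.9% each of the summed type IV medians in endothelial cells and 55.2% and 41.1% in pericytes, while *Col4a5* made up 2.58% in pericytes and 7.8% in astrocytes.

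**Figure D2:**
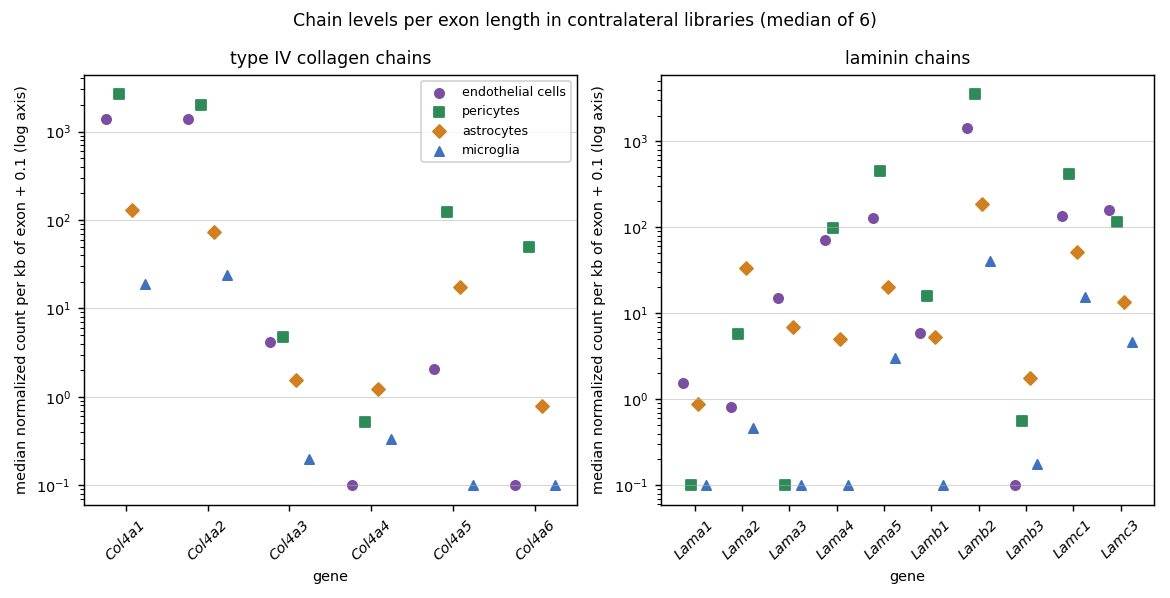
Median normalized count per kilobase of exon (log axis, 0.1 added) of the type IV collagen chains on the left and the laminin chains on the right in the 6 contralateral libraries of each cell type. *Col4a1*, *Col4a2* and *Lamb2* stand highest in all 4 cell types, *Col4a6* stands out in pericytes and *Lama2* in astrocytes.

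Among laminins, the β2 chain *Lamb2* was the most abundant chain per kilobase in every cell type, with 76.3% of the summed laminin medians in contralateral pericytes, 73.3% in endothelial cells, 57.7% in astrocytes and 63.6% in microglia. Its contralateral medians in normalized counts were 21601.5, 8624.5, 1152.5 and 249. Of the α chains, which decide what receptors a laminin binds, *Lama5* had medians of 5165.5 in pericytes and 1445 in endothelial cells. *Lama4*, the other vascular α chain, had medians of 1181.5 and 861, and neither cell type was called highest (largest adjusted p = 0.526). *Lama2*, known as an astrocytic and muscle chain, had a median of 549 in astrocytes, against 93 in pericytes, 11.5 in endothelial cells and 6 in microglia (largest adjusted p = 0.055). The pericyte values of *Lama2* were 17 to 131 in replicates 1 to 4 and 912 and 607 in replicates 5 and 6. *Lama3* and *Lama1* had group medians of at most 162 and 22, and the 162 of *Lama3* was that of contralateral endothelial cells.

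*Lamc1*, the γ chain of most laminins, had contralateral medians of 3421.5 in pericytes, 1118 in endothelial cells, 430 in astrocytes and 128.5 in microglia. *Lamc3*, another γ chain, had medians of 979 in endothelial cells and 699 in pericytes (largest adjusted p = 0.925). Its pericyte libraries were uneven, with 178 to 837 in replicates 1 to 4 and 10150 and 5253 in replicates 5 and 6. *Lamb1*, the other β chain of vessels, was low, with contralateral medians of 156 in pericytes, 57 in endothelial cells, 51.5 in astrocytes and 0 in microglia.

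*Nid1* had a contralateral median of 2468.5 in pericytes, above 759 in endothelial cells, 121.5 in astrocytes and 22 in microglia (smallest difference 1.78 on the log2 scale, largest adjusted p = 0.0384). Its relative *Nid2* followed another order, with 674.5 in endothelial cells, 375 in microglia, 232.5 in pericytes and 129.5 in astrocytes, and no cell type was called highest. Perlecan and agrin were highest in the vascular cells by their medians, with *Hspg2* medians of 1438.5 in pericytes and 1014 in endothelial cells, and *Agrn* medians of 1750 and 2184. Astrocytes held 84.5 and 728.5 and microglia 16 and 98.5. *Col18a1*, whose protein yields endostatin, had a median of 8347 in pericytes and 1392 in endothelial cells, and missed the call (adjusted p = 0.0643). Its sister multiplexin *Col15a1* was highest in microglia, with 48 to 188 normalized counts (median 91.5), against medians of at most 7 in the other cell types (largest adjusted p = 0.000523).

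Fibronectin was the endothelial gene of the set. *Fn1* ranged from 19564 to 34418 in contralateral endothelial cells (median 26755), above every library of the other cell types, whose medians were 2465.5 in pericytes, 488 in microglia and 246.5 in astrocytes (smallest difference 3.41 on the log2 scale, largest adjusted p = 9.8e-08). *Tnc* was the astrocytic gene, at 9 to 106 (median 32), with a median of 3.5 in pericytes and 0 in all 12 contralateral libraries of endothelial cells and microglia (largest adjusted p = 0.0044). *Sparc*, which encodes a secreted collagen-binding protein, had the highest median per kilobase of the set in all 4 cell types, 5660 to 9160 normalized counts per kilobase contralaterally. Its contralateral medians in normalized counts were 34697 in microglia, 32722.5 in endothelial cells, 22866 in pericytes and 21442 in astrocytes.

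The interstitial collagens had their highest medians in pericytes. Contralateral pericyte medians were 4128.5 for *Col1a2*, 2532.5 for *Col3a1*, 1729 for *Col6a2*, 1330 for *Col6a1*, 779 for *Col1a1* and 505.5 for *Col5a1*. Of these genes *Col1a2* and *Col1a1* also had astrocyte medians of 509 and 173.5, while *Col3a1*, *Col6a1* and *Col6a2* had medians of 0 to 39.5 in the other 3 cell types. Of the contralateral astrocyte libraries, replicate 6 stood far above these medians, at 1313 for *Col6a1* and 870 for *Col6a2*. *Col5a2* was seen in pericytes and in endothelial cells alike (463.5 and 364.5). *Col6a3*, the other chain of the usual type VI trimer, had medians of at most 70.5 in all 8 groups. The fibroblast markers given above summed to 408 to 3450 in contralateral endothelial cells, where *Col3a1* was at most 129 and *Col6a1* at 0 in all 6 libraries.

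The change after stroke was tested within each cell type, 6 ipsilateral against 6 contralateral libraries. A gene was called changed at an adjusted p of at most 0.05, a change of at least 1.5-fold either way, and more than 10 normalized counts in all 6 libraries of at least 1 hemisphere. Few matrix genes passed. In endothelial cells 0 of 25 tested were called higher or lower by limma, where 0.362% of all genes were called higher and 0.128% lower. Of the 25, 6 had an unadjusted p under 0.05. In pericytes 1 of 31 was higher, the gene *Tnc*, and none was lower (0.441% and 0.581% of all genes). In astrocytes 1 of 32 was higher, again *Tnc*, and none was lower (0.334% and 0.00655%). In microglia 1 of 23 was higher, *Fn1*, and none was lower (4.29% and 6.27%). Among genes not called, 4 in pericytes, 3 in astrocytes and 8 in microglia had an unadjusted p under 0.05. The share of all genes at that unadjusted p was not counted, so such counts, here and below, are not shown to exceed it. The tests above had no term for the replicate, so both hemispheres of a pool entered as separate libraries. For the pairs and the replicate block, hemispheres with the same replicate number were taken as 1 pool of mice, which is inferred from the number. Adjusted p values below are without the block unless it is named. With the replicate as a block 1 gene was called in endothelial cells (*Nid1*; 0.551% of all genes in either direction), 1 in pericytes (*Tnc*; 1.66%), 2 in astrocytes (*Tnc* and *Col6a2*; 1.59%) and 2 in microglia (*Fn1* and *Nid1*; 11.0%), all higher. The median log2 fold change of the matrix genes tested was 0.85 in microglia (all genes -0.18), 0.41 in endothelial cells (-0.03), 0.10 in astrocytes (-0.06) and -0.05 in pericytes (-0.04). In endothelial cells 2 of 25 matrix genes were higher and 2 lower in all 6 pairs, against 4.77% and 5.19% of all genes. In pericytes 2 and 1 of 31 were (4.55% and 6.86%), in astrocytes 3 and 1 of 32 (5.02% and 6.59%). In microglia 3 and 0 of 23 were (9.49% and 13.8%). These small counts were not tested against the shares. The hemispheres did not overlap for 1.93% of all genes in pericytes, 0.898% in astrocytes and 8.56% in microglia.

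**Figure D3:**
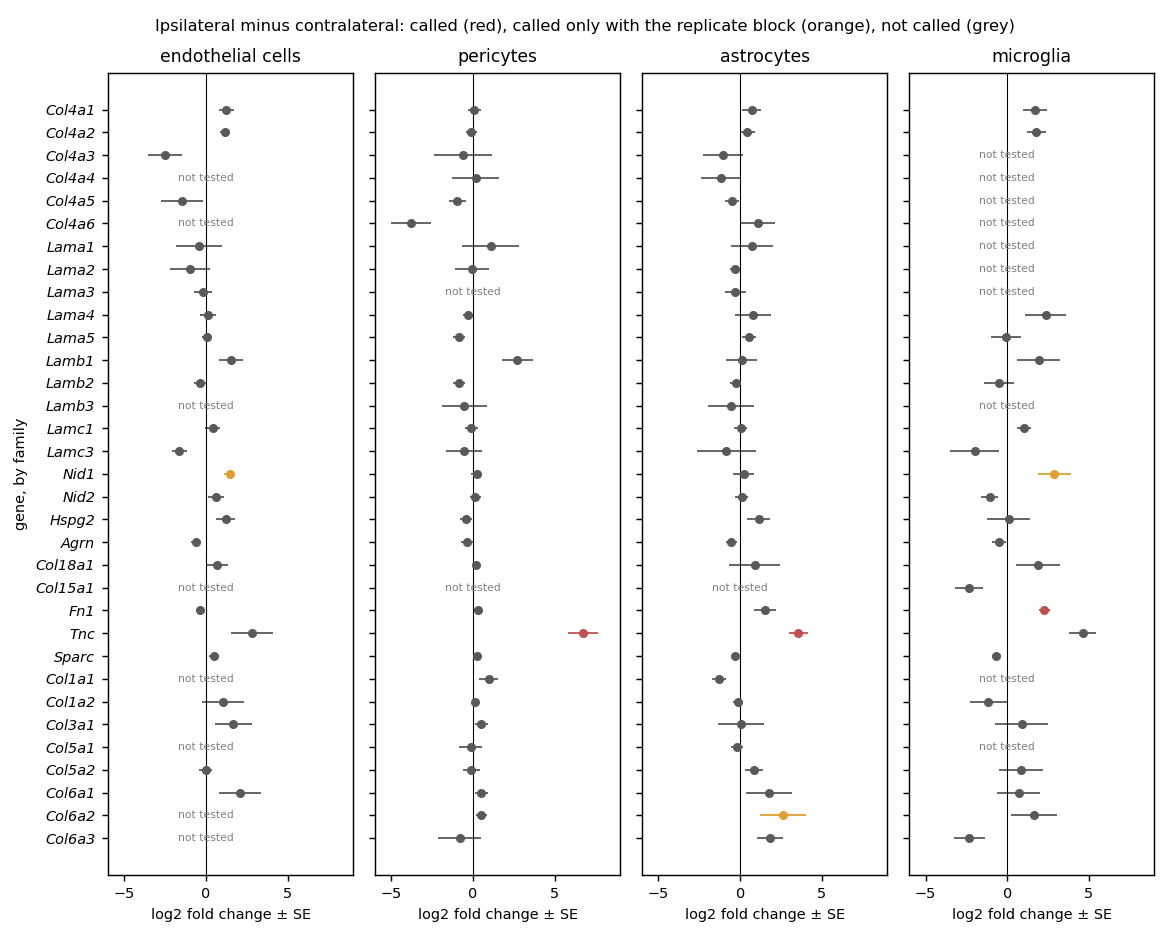
Log2 fold change (ipsilateral minus contralateral, limma, 6 libraries against 6) with its SE for each matrix gene in each cell type, on the log2(normalized count + 1) scale. *Tnc* in pericytes and astrocytes and *Fn1* in microglia are called (red), and *Nid1* in endothelial cells and microglia and *Col6a2* in astrocytes are called only with the replicate block (orange). *Tnc* in microglia is grey because 1 ipsilateral library held only 4 normalized counts.

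Tenascin C had the largest fitted change of the set, in pericytes. Its promoter is shown for this reason, and because 2 of the 23 windows, those of *Tnc* and *Col3a1*, hold the letters of a TATA box. RefSeq lists 2 windows for *Tnc*, and the one whose start is that of the annotated gene is shown, chr4:64046966-64047265 on the minus strand (GRCm38.p6). Capitals mark the TATA box, searched as TATAAA, which occurred in 13.6% of all windows, and the GC box, each on either strand. These too are matches of letters only, and the TATAAA lies well upstream of the gene's start.
Tnc: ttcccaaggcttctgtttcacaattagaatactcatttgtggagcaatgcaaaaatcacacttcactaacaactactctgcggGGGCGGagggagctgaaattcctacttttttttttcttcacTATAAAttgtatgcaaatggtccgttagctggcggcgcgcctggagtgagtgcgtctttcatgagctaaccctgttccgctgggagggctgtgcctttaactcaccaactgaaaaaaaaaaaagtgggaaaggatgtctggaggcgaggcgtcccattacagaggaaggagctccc

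In the 6 contralateral pericyte libraries *Tnc* stood at 0, 0, 7, 0, 9 and 23 normalized counts, and in the 6 ipsilateral libraries at 260, 199, 246, 276, 960 and 811. The groups did not overlap, every pair rose, and the ratio of the means was 70.6. The fitted log2 fold change was 6.73 (SE 0.90), with an adjusted p of 0.00637 by limma and of 0.00816 when the replicate was a block. Because the contralateral values lie near the floor, it depended on the pseudocount, with 8.45 at a pseudocount of 0.1 and 4.70 at a pseudocount of 10. *Tnc* was called in pericytes whichever replicate was left out, and in replicates 1 to 4 and in replicates 5 and 6 taken alone (7.18 and 5.83). Astrocyte markers in the ipsilateral pericytes were at 0.211% to 0.889% of their median in contralateral astrocytes, and the part of astrocyte RNA in these *Tnc* values was not tested. The ipsilateral median of *Tnc* was 268 in pericytes and 353 in astrocytes.

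In astrocytes *Tnc* ranged from 9 to 106 contralaterally (median 32) and from 189 to 661 ipsilaterally (median 353). The groups did not overlap, and every pair rose. The log2 fold change was 3.56 (SE 0.58, adjusted p = 0.0178, 0.00312 with the replicate block). The call was lost without replicate 2, 3, 4 or 5 (adjusted p = 0.108, 0.0816, 0.0636 and 0.0604), where the log2 fold change was 3.35 to 3.65. It was also lost with no filter on low values (adjusted p = 0.0673).

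In microglia *Tnc* was 0 in all 6 contralateral libraries and 13, 72, 40, 68, 4 and 14 on the ipsilateral side. The ipsilateral mean was at least 11.8-fold higher when each contralateral library is set at its floor of 3 reads. The groups did not overlap, as for 8.56% of all genes tested there. The adjusted p was 0.00298, and the call failed only on the rule of more than 10 normalized counts in all libraries of a hemisphere. Without that rule 2 of 23 matrix genes were called in microglia, *Fn1* and *Tnc*, against 10.9% of all genes. In endothelial cells *Tnc* was 0 in all 6 contralateral and in 3 ipsilateral libraries, and 75, 68 and 23 in ipsilateral replicates 2, 3 and 4. The mean was at least 9.83-fold above the same floor, and the change did not pass (adjusted p = 0.393).

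Fibronectin rose in microglia. *Fn1* ranged from 223 to 959 normalized counts in contralateral microglia (median 488) and from 1280 to 3687 in ipsilateral ones (median 2618). The groups did not overlap and every pair rose, by 0.42 to 3.72 on the log2 scale. The log2 fold change was 2.25 (SE 0.34, adjusted p = 0.00138, 0.00575 with the replicate block), and it stayed called whichever replicate was left out (1.95 to 2.61) and in replicates 5 and 6 alone (2.55). Endothelial cells, the richest source of *Fn1*, ranged from 12634 to 36190 ipsilaterally, overlapping the contralateral range, and did not pass the test (log2 fold change -0.36, SE 0.27, adjusted p = 0.653). Endothelial markers in ipsilateral microglia summed to 0.342% to 3.25% of their contralateral endothelial median. Markers of monocytes and border macrophages summed to 340 to 1681 in contralateral and 1106 to 3057 in ipsilateral microglia, and 1 of the 7 genes, *Plac8*, was called higher. In the same fit, 3 of 7 neutrophil markers tested were called higher (*S100a8* 3.35, *S100a9* 3.26 and *Retnlg* 3.36) and 1 lower (*Csf3r* -1.77), and 2 of 4 microglial markers were called lower (*Tmem119* -1.60 and *Csf1r* -1.10). The part of other cells in the rise of *Fn1* was not tested. In astrocytes *Fn1* was higher in every pair (28 to 583 against 167 to 1392) but did not pass (1.53, SE 0.69, adjusted p = 0.522), and in pericytes the log2 fold change was 0.27 (SE 0.30, adjusted p = 0.714).

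**Figure D4:**
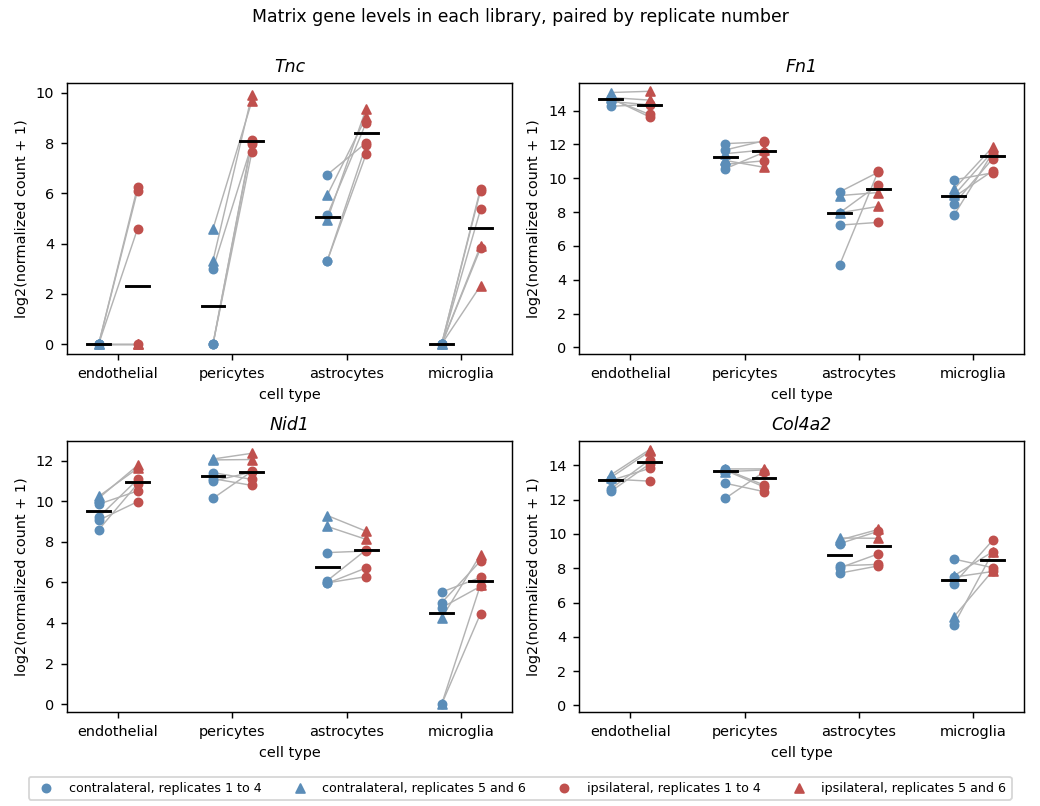
Log2(normalized count + 1) of *Tnc*, *Fn1*, *Nid1* and *Col4a2* in all 48 libraries, blue for contralateral and red for ipsilateral, with lines joining the hemispheres of a replicate, black bars for group medians and triangles for replicates 5 and 6. *Tnc* starts at or near 0 outside astrocytes and is higher ipsilaterally in pericytes, astrocytes and microglia, *Fn1* is higher in ipsilateral microglia, and *Nid1* and *Col4a2* are mostly higher in ipsilateral endothelial cells.

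Nidogen 1 was higher in ipsilateral endothelial cells in every pair. *Nid1* ranged from 385 to 1205 contralaterally (median 759) and from 1006 to 3476 ipsilaterally (median 2000), so that the groups overlapped at their edges. The log2 fold change was 1.45 (SE 0.35), with an adjusted p of 0.093 without and 0.0371 with the replicate block. In microglia *Nid1* was also higher in every pair, at a low level (0 to 45 against 21 to 164). The log2 fold change was 2.88 (SE 1.00), with an adjusted p of 0.0755 without and 0.0346 with the block. In pericytes, where it was highest, the value for *Nid1* was 0.23 (SE 0.34, adjusted p = 0.79), and in astrocytes 0.21 (SE 0.62, adjusted p = 0.949).

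Other genes of the endothelial basement membrane had higher values ipsilaterally without passing the test over all 6 replicates. These and the other genes not called that are named here were picked after their values were seen. *Col4a1* in endothelial cells was 5719, 28535, 19258, 21602, 45094 and 50409 ipsilaterally against 9847, 5100, 10959, 6659, 14736 and 16208 contralaterally. It was higher in all replicates except the first (1.24, SE 0.47, adjusted p = 0.299). *Col4a2* behaved alike (8677 to 31160 against 5717 to 11181, also lower in replicate 1), at 1.15 (SE 0.31, adjusted p = 0.128). *Hspg2* had a median of 2159.5 against 1014 (1.22, SE 0.58, adjusted p = 0.431). Endothelial replicate 1 stood apart, with 5 of the 25 genes higher and 18 lower ipsilaterally, against 13 to 19 higher in each of the other replicates. All genes were not counted by replicate, so this is not shown to be particular to the matrix genes. In replicates 5 and 6 alone, which held the fewest microglial markers, 7 of 20 matrix genes tested were called, all higher, against 3.61% of all genes. They were *Hspg2* (log2 fold change 1.72), *Col4a1* (1.63), *Col4a2*, *Nid1*, *Nid2* (1.09), *Col18a1* (0.99) and *Sparc* (0.88), with adjusted p from 0.0155 to 0.0472. This fit has 2 libraries a hemisphere and was chosen after the data were seen. With all 12 libraries and a term for replicates 5 and 6, 3 of 25 were called (*Nid1* and *Col4a2* higher, *Lamc3* lower), against 1.45% of all genes. No label separates replicates 5 and 6 from the others, and this split was seen in the marker counts of the same libraries.

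Other endothelial genes had lower values. *Lamc3* was lower in every pair, 436 to 1629 contralaterally (median 979) and 122 to 758 ipsilaterally (median 285.5), at -1.64 (SE 0.45, adjusted p = 0.137, 0.0942 with the block). *Col4a3* was also lower in every pair (median 41 against 8, adjusted p = 0.355, 0.19 with the block). *Agrn* was at -0.60 (SE 0.30, adjusted p = 0.456). Other laminin chains of endothelial cells lay closer to 0, with *Lamb2* at -0.38, *Lama5* at 0.05, *Lama4* at 0.15 and *Lamc1* at 0.41 (SE 0.29 to 0.49, adjusted p from 0.759 to 0.974).

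In pericytes the abundant basement membrane genes did not pass the test. The log2 fold change was 0.08 for *Col4a1* (SE 0.38), -0.12 for *Col4a2* (SE 0.33) and -0.10 for *Lamc1* (SE 0.40). *Lama5* and *Lamb2*, both lower in 5 of 6 pairs, were at -0.86 (SE 0.34) and -0.85 (SE 0.37), with adjusted p of 0.245 and 0.289. *Col4a6* was lower in every pair, 93 to 697 contralaterally (median 396.5) and 0 to 198 ipsilaterally (median 55.5), at -3.78 (SE 1.23, adjusted p = 0.157, 0.105 with the block). *Lamb1* was higher in every pair, 3 to 320 against 258 to 1582 (medians 156 and 477.5), at 2.70 (SE 0.94, adjusted p = 0.182, 0.0696 with the block). In replicates 5 and 6 alone, 2 of 31 were called, *Tnc* and *Lamb1* (2.29, adjusted p = 0.0155), against 0.652% of all genes. The summed smooth muscle markers were lower ipsilaterally in every pericyte pair, and their part in the lower values of *Lama5*, *Lamb2* and *Col4a6* was not tested. For the interstitial collagens of pericytes the log2 fold change was 0.14 (*Col1a2*), 0.50 (*Col3a1*), 0.50 (*Col6a1*), 0.51 (*Col6a2*) and 0.95 (*Col1a1*), none called (adjusted p from 0.472 to 0.799). For the other 3 it was below 0, at -0.10 (*Col5a2*), -0.15 (*Col5a1*) and -0.83 (*Col6a3*), none called either. Fibroblast markers in pericytes had median sums of 1686.5 contralaterally and 2867 ipsilaterally, with overlapping ranges. Their part in the interstitial collagen values was not tested.

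In astrocytes *Col6a2* was higher in every pair and was called only with the replicate block (log2 fold change 2.63, SE 1.40, adjusted p = 0.609 without and 0.0306 with the block). Its 6 contralateral values were 0, 10, 4, 21, 62 and 870 and its ipsilateral values 18, 77, 58, 78, 456 and 1180, so that the groups overlapped widely and replicates 5 and 6 were the highest of both. *Col1a1* was lower in every pair (median 173.5 against 86.5) at -1.30 (SE 0.43, adjusted p = 0.374, 0.126 with the block). The laminin chain *Lama2* was at -0.32 (SE 0.29, adjusted p = 0.793).

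In microglia most matrix genes were low, and 10 of the 33 were under the mean of 10 normalized counts needed for the test. The 23 tested differed between replicates. In replicate 2 only 4 of the 23 genes were higher ipsilaterally, against 12 to 18 in the other replicates. Its ipsilateral library held neutrophil markers at 19288 against 4298 to 6809 in the other 5, and had the largest sum of normalized counts (16942165). All genes were not counted by replicate, so the low count is not shown to be particular to the matrix genes, and its cause was not tested. Without replicate 2, 6 of 22 were called, against 14.4% of all genes. *Fn1*, *Col4a1* (2.42), *Col4a2* (2.24), *Col18a1* (3.55) and *Lamc1* (1.34) were higher and *Sparc* (-0.82) was lower, with adjusted p from 0.000234 to 0.0499. With all 6 replicates *Col4a1* was 21 to 266 contralaterally and 65 to 1072 ipsilaterally, at 1.69 (SE 0.71, adjusted p = 0.136). *Col4a2* was 25 to 371 and 224 to 794, at 1.78 (SE 0.59, adjusted p = 0.0635). *Sparc* was 32081 to 44295 and 11742 to 37826, at -0.67 (SE 0.26, adjusted p = 0.112). *Col15a1*, the multiplexin highest in microglia, was lower in 5 of 6 pairs (48 to 188 against 0 to 98), at -2.35 (SE 0.87, adjusted p = 0.0942). Of the 4 endothelial and the 4 pericyte markers 0 were called in microglia by limma, with 0 at an unadjusted p under 0.05 and 0 with the block. Their median log2 fold changes were 0.54 and 0.87 (all genes -0.18). Pericyte markers summed to 31 to 574 in contralateral and 102 to 1865 in ipsilateral microglia, the latter 0.135% to 2.47% of their contralateral pericyte median. The part of other cells' RNA in the values of *Col4a1* and *Col4a2* was not tested.

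Whether the change after stroke differed between the 4 cell types was tested for each gene in 1 fit of all 48 libraries. By this limma F test 0 of 32 matrix genes were called, against 0.660% of all genes, and 8 had an unadjusted p under 0.05. The smallest adjusted p was that of *Fn1* (0.101), followed by *Sparc* (0.207) and *Col4a6* (0.224). For *Tnc* it was 0.332 and for *Nid1* 0.352. With the replicate as a block 1 gene was called, *Nid1* (adjusted p = 0.0445), and the share of all genes was not counted for this fit. A call of *Fn1* in microglia or of *Tnc* in pericytes and astrocytes is thus not shown to be particular to these cells.

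The genes around the matrix were counted as whole lists. Of 25 genes that modify, fold or crosslink collagen, 0 of 20 tested were called in endothelial cells, 0 of 25 in pericytes and 0 of 23 in astrocytes by limma, with and without the block, with 6, 4 and 3 at an unadjusted p under 0.05. In microglia 1 of 17 was called higher, *Crtap*, which encodes a cartilage-associated protein of the collagen prolyl hydroxylase complex (0.85, SE 0.23, adjusted p = 0.0306), against 4.29% of all genes. The call was lost with the replicate block (adjusted p = 0.0506). Of 12 matrix receptors, the integrin chain *Itga5*, part of the main fibronectin receptor, was called higher in astrocytes (1 of 11 tested, 2.87, SE 0.57, adjusted p = 0.0466) and in microglia (1 of 11, 1.56, SE 0.48, adjusted p = 0.0493), against 0.334% and 4.29% of all genes. No receptor was called in endothelial cells or pericytes (1 and 5 at an unadjusted p under 0.05), and with the block *Itga7* was called lower in pericytes (-1.25, adjusted p = 0.0284). Of 26 other matrix genes, 7 of 20 tested were called higher and 0 lower in microglia by limma, with and without the block, against 4.29% and 6.27% of all genes, and 8 had an unadjusted p under 0.05. The 4 with the smallest adjusted p were *Postn*, which encodes periostin (3.41, adjusted p = 9.4e-06), the thrombospondin *Thbs1* (2.97, 2.9e-05), *Tgfbi* (2.06, 0.000239) and *Ecm1* (2.23, 0.00262). In the other cell types none of this list was called (6, 8 and 7 at an unadjusted p under 0.05 in endothelial cells, pericytes and astrocytes), while with the block *Thbs1* was called higher in pericytes (1.15) and astrocytes (2.83), *Ecm1* higher in astrocytes (2.58, adjusted p = 0.0489) and *Ecm2* lower in pericytes (-1.21, adjusted p = 0.0284).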

How the data were processed

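RNA of 48 libraries of sorted cells was measured by RNA sequencing after amplification of low input. Per the labels, the tools were Trimmomatic 0.38, STAR 2.6.1d, featureCounts 1.6.3 and DESeq2 1.18.1, with GRCm38. The values the authors deposited are counts per gene divided by a size factor of each library and rounded, so they were treated as a score and never as raw counts, and no count test was run. Tests were made here in R 4.3.3 with limma 3.58.1 (lmFit, eBayes with a trend, two-sided, Benjamini-Hochberg adjustment over all genes tested) on log2(normalized count + 1), in a fit of 12 libraries per cell type without a block, where a gene averaged 10 or more. Fold changes on this scale depend on the pseudocount for low genes, and being differences of mean logs they can lie above or below a ratio of means. Differences between cell types and contralateral levels were tested in 1 fit of 48 libraries. The thresholds of the call rule are those of the study. The test was checked on simulated data.

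For the pairs and the replicate block, hemispheres with the same replicate number were treated as coming from the same pooled mice, as inferred from the number. On average their deviations from the group means went together (mean correlation 0.38 for astrocytes, 0.23 for pericytes and endothelial cells, 0.14 for microglia, and -0.03 to -0.08 between unlike numbers). Not every pair did, as the lowest correlation of a pair was 0.02 for astrocytes, -0.07 for pericytes, 0.01 for endothelial cells and -0.03 for microglia. The replicate block is given where it changes a call, and for named genes not called that moved the same way in every pair. Exon lengths and overlaps came from GENCODE M21. Counting was not stated to use strand, and exons of *Tnc* share 176 bases and those of *Fn1* 292 bases with genes on the other strand. The members and lists were chosen with earlier results of these data known. Values by library are given for genes called in at least 1 cell type with or without the block, and other genes are named by their place in a family or after their values were seen. Promoter windows were read from RefSeq. Of the 33 genes, 23 had one. Alternatives were other pseudocounts, filters, scalings, fits and subsets of libraries.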

Additional observations from a re-analysis of the deposited data

Results flagged for a closer look

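A library far from the other 5 was looked for in the 193 groups of 6 libraries in which a matrix gene had a median of at least 10 normalized counts. It was found in 18. The gap to the nearest library was compared with the range in normalized counts, not in their logs. A chance rate of about 1 in 20 holds for normally distributed values, which these counts were not shown to be. The 18 are therefore not shown to exceed chance. In contralateral astrocytes these were *Col6a1* (1313), *Col6a2* (870) and *Col18a1* (442) in replicate 6, *Lama2* (1014) in replicate 5, *Lama3* (220) in replicate 1 and *Col5a1* (112) in replicate 2, each high. The ipsilateral astrocytes had *Agrn* (1463) high in replicate 1, *Hspg2* (316) in replicate 6 and *Col3a1* (106) in replicate 2.

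In contralateral endothelial cells replicate 2 was high for *Sparc*, at 92243 against 28723 to 35202, and low for *Hspg2*, at 151 against 907 to 1256, and replicate 4 was high for *Col4a3* (166). *Col15a1* was high in ipsilateral endothelial replicate 4 (37). In pericytes *Lamc1* (7875) was high in contralateral replicate 5 and *Col1a1* (2665) in ipsilateral replicate 4. In ipsilateral microglia *Lama5* (104) and *Col1a2* (101) were high in replicate 6 and *Hspg2* (147) in replicate 4.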

How the results depend on the processing

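The counts of matrix genes called were small, so that 1 gene moves them by over 1.5 times. The replicate block takes hemispheres of the same number as pairs. With the block the count was 1 in endothelial cells (0 without), 2 in astrocytes (1 without), 2 in microglia (1 without) and 1 in the test of the difference (0 without), and the block changed no other count by that much. Leaving out 1 replicate gave 0 to 1 in astrocytes, 1 to 6 in microglia and 0 to 1 in the difference test. It gave 6 in microglia without replicate 2 and 2 without replicate 5, and in the difference test 1 without replicate 2, *Sparc*. Cell types from the sample titles gave 21 in pericytes, 24 in microglia and 26 in the difference test. Replicates 5 and 6 only, chosen after seeing the data, gave 7 in endothelial cells, 2 in pericytes and 0 in astrocytes, and replicates 1 to 4 only gave 0 in astrocytes and 2 in microglia. A term for replicates 5 and 6 gave 3 in endothelial cells. A pseudocount of 10 gave 2 in microglia and 2 in the difference test, where *Col4a6* and *Tnc* passed. The joint fit of 48 libraries gave 2 in pericytes and 3 in microglia, no filter on low values gave 0 in astrocytes, and no expression rule gave 2 in microglia. The cause of these moves was not tested, except that the subsets hold fewer libraries. The share of all genes called was counted for only some of these settings. A move in a count is therefore not shown to be particular to the matrix genes. The count of genes highest in 1 cell type, 14, was 10 to 17 over all its alternatives, and *Nid1*, *Lamb2*, *Col1a1* and *Tnc* were the genes lost when a replicate was left out. Other alternatives lost further genes by limma. *Col1a2* and *Col4a5* were lost at a pseudocount of 0.1 (largest adjusted p = 0.0686 and 0.0979), and *Lama5* in replicates 1 to 4 only (0.0662). *Col15a1* was not among the genes called where a mean of at least 50 was required. The log2 fold changes of *Tnc* in pericytes and astrocytes, *Fn1* in microglia, *Nid1* in endothelial cells and microglia and *Col6a2* in astrocytes kept their sign under every alternative run. With cell types from the titles, 14 of 30 matrix genes in pericytes and 5 of 23 in microglia changed sign, among them *Nid1* in pericytes, from 0.23 to -5.16. Amplified reads without molecular identifiers limit precision for genes near the floor, such as *Tnc* in the contralateral libraries of pericytes, endothelial cells and microglia.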
